A study of Mus musculus with 6 samples.

Results

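The miR-129 family was followed in small RNA libraries of mouse pancreatic islets, the endocrine part of the pancreas that secretes insulin, glucagon and other hormones. Its 5 rows, mmu-miR-129-5p, mmu-miR-129-1-3p, mmu-miR-129-2-3p, mmu-miR-129b-5p and mmu-miR-129b-3p, were taken by name from a table of 1011 mature miRNAs, and all 5 passed the filter on low counts. The study compared primary islets of HFD-fed and NCD-fed mice, with 3 libraries per diet, named here HFD 1 to 3 and NCD 1 to 3. The labels give no strain, age, sex or feeding time, and they do not say whether a library came from 1 animal or from a pool, so any p-value measures the spread between these samples only. The family was chosen by name with its read counts in the 6 libraries, HFD against NCD, already known, so the diet comparison of its rows is a description and carries no test. The prefix mmu, for mouse, is left out below.

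miRNAs are short RNAs cut from a hairpin precursor. The 5p and 3p arms leave the hairpin as a duplex, 1 arm is usually loaded into an Argonaute protein, and its seed, bases 2 to 8, pairs with target mRNAs. miR-129 is known chiefly from neurons, where its 5p arm acts on potassium channel and synaptic transcripts, and it is also known as a repressor of SOX4 and of the ciliary protein CP110. Islet endocrine cells share part of their regulatory programme with neurons.

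The mature sequences are shown because they decide which rows can be told apart. They are read from the deposited table, 5′ to 3′, with the seed in capitals.
miR-129-5p: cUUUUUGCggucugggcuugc
miR-129-1-3p: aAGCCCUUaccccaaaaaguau
miR-129-2-3p: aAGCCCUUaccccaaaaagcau
miR-129b-5p: gCUUUUUGggguaagggcuucc
miR-129b-3p: cAAGCCCAgaccgcaaaaagauu
Both 3p arms have the seed AGCCCUU and differ by 1 base of 22, U20C counted from the 5′ end of miR-129-1-3p. A read that stops within the shared first 19 bases would match both. No other row of the table has the seed of a family member, and miR-129-5p, miR-129b-5p and miR-129b-3p each have a seed of their own. The seed of miR-129b-5p equals bases 1 to 7 of miR-129-5p, so these seeds are shifted by 1 base.

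The hairpins show how 1 5p arm is shared by both loci. They are RefSeq sequences on GRCm38.p6, with the arms in capitals. The sources used here do not give the authors' own build.
Mir129-1: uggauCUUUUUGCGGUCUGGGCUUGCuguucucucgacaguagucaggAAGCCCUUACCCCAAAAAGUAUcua
Mir129-2: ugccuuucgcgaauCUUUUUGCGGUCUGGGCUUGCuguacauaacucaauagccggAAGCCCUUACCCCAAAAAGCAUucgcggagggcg
Mir129b: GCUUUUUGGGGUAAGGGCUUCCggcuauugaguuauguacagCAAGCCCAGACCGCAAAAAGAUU
Mir129-1 lies at chr6:29022619-29022691 on the plus strand and overlaps an exon of the long non-coding RNA Gm3294 on the same strand (GENCODE M21). Mir129-2 lies at chr2:94241364-94241453 on the minus strand, in an intron of the long non-coding RNA Mir670hg. Mir129b lies within the same stretch, at chr2:94241378-94241442, on the opposite strand. The miR-129-5p sequence is found whole in the Mir129-1 and Mir129-2 hairpins, so its reads cannot be split between the loci, whereas each locus has its own 3p arm.

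The antisense names added little of their own. miR-129b-3p is complementary to miR-129-5p over 20 bases, and its counts were 97.4% to 98.7% of those of miR-129-5p in every library, for example 24635 against 24978 in HFD 1 and 42234 against 42788 in NCD 3. With a gap of 1.30% to 2.61%, these rows were treated as 1 measurement. miR-129b-5p is complementary to miR-129-2-3p over 20 bases and to miR-129-1-3p over 19. It held 420, 604 and 682 reads in HFD 1, 2 and 3 and 558, 553 and 3425 in NCD 1, 2 and 3. That was 42.4% to 52.2% of the miR-129-2-3p count and 6.52% to 11.4% of the miR-129-1-3p count in the same library. The table does not state a strand, so reads of Mir129-2 and of Mir129b cannot be told apart, and miR-129b-5p is not used as a separate measurement below.

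Library totals ran from 7166712 to 11172255 counts. Levels are CPM, a count relative to the total of its library, with totals scaled by TMM factors, which align the bulk of miRNAs between libraries. NCD 3 stood apart with a factor of 1.73, against 0.84 to 0.995 in the other libraries, and 60 of 406 tested miRNAs, or 14.8%, were over 1 log2 unit above the mean of the other 5 libraries there. With TMM factors it also had the lowest miR-375-3p, the main islet endocrine miRNA, at 170905 CPM. On library totals miR-375-3p was lower in HFD 3, with 2566704 of 11059628 counts, than in NCD 3, with 2403605 of 8121430. NCD 3 had the highest level of the acinar marker miR-217-5p, at 315 CPM. The log2 fold changes of the miR-129 arms and the diet difference in arm balance are given with and without NCD 3. Between diets, edgeR's quasi-likelihood test called 1 of 406 miRNAs, or 0.246%, at an adjusted p under 0.05.

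miR-129-5p was an abundant islet miRNA in both diets. By its mean over all libraries it ranked 21 of the 406 tested miRNAs, and it took 0.206% to 0.527% of the reads. Its level was 2782, 3495 and 2068 CPM in HFD 1, 2 and 3 and 4837, 3828 and 3042 CPM in NCD 1, 2 and 3. NCD 1 was highest and HFD 3 lowest, and the diets overlapped, since HFD 2 lay above NCD 3. HFD islets averaged 2782 ± 713 CPM and NCD islets 3902 ± 900 CPM (mean ± SD of n = 3 libraries), 1.40-fold higher in NCD. The log2 fold change of HFD against NCD was -0.49 with a standard error of 0.32.

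The order of the libraries in miR-129-5p depended on the scaling of NCD 3. On library totals alone the levels were 2339, 2936 and 2057 CPM in the HFD libraries and 4549, 3343 and 5269 CPM in the NCD libraries. NCD 3 then moved from the lowest NCD library to the highest of all, and every HFD library lay below every NCD library. Among all tested miRNAs 9.11% were ordered in this way on library totals, and 4.93% with TMM factors, where 0 of the 5 miR-129 rows were. Over all tested miRNAs the median log2 fold change went from 0.015 to -0.37 on library totals. Relative to that median miR-129-5p was at -0.50 with TMM factors and at -0.48 on library totals, so its gap to the median hardly changed. Without NCD 3 its log2 fold change was -0.66.

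**Figure D1:**
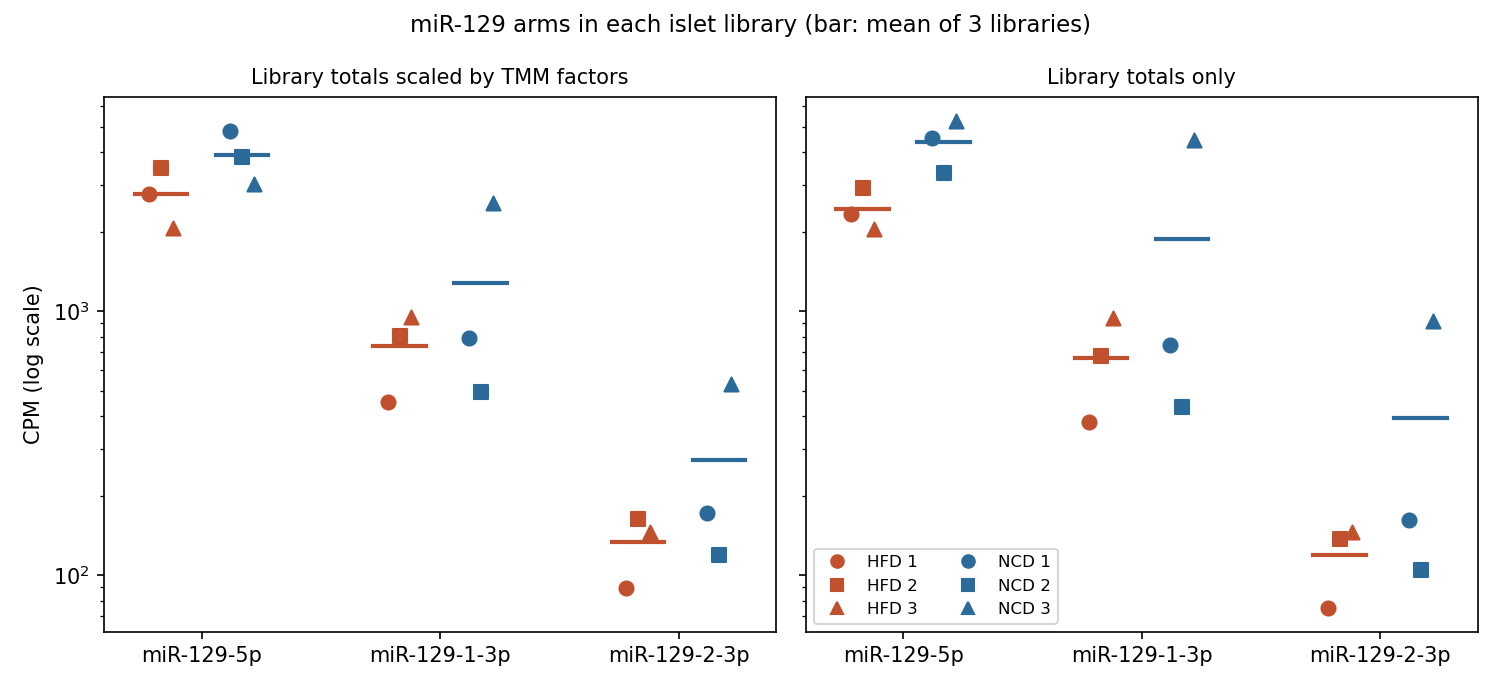
CPM of miR-129-5p, miR-129-1-3p and miR-129-2-3p in each library on a log axis, with TMM scaling on the left and library totals on the right; each point is 1 library and each bar the mean of 3. NCD 3 is far above the other libraries for both 3p arms in both panels, but its rank for miR-129-5p changes with the scaling.

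miR-129-1-3p, the 3p arm of the chromosome 6 locus, ranked 34. It was at 452, 804 and 952 CPM in HFD 1, 2 and 3 and at 790, 495 and 2569 CPM in NCD 1, 2 and 3. NCD 3 was far above the rest, at 3.68 times the mean of the other 5 libraries, while NCD 1 and NCD 2 lay within the HFD range. HFD islets averaged 736 ± 257 CPM and NCD islets 1285 ± 1122 CPM (mean ± SD of n = 3 libraries), so the NCD spread was nearly as large as the NCD mean. The log2 fold change was -0.80 ± 0.51 (SE) and became 0.17 without NCD 3, with the opposite sign.

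miR-129-2-3p, the 3p arm of the chromosome 2 locus, was less abundant and ranked 82. Its level was 89.7, 164 and 146 CPM in HFD 1, 2 and 3 and 173, 120 and 529 CPM in NCD 1, 2 and 3. NCD 3 was again the highest, at 3.82 times the mean of the others, and the diets overlapped. HFD islets averaged 133 ± 38.7 CPM and NCD islets 274 ± 223 CPM (mean ± SD of n = 3 libraries). The log2 fold change was -1.04 ± 0.49 (SE) and -0.15 without NCD 3. For the mirrored miR-129b-5p, with means of 61.7 ± 14.7 and 128 ± 101 CPM, the log2 fold change was -1.06 ± 0.48 (SE), and it was -0.20 without NCD 3.

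Both 3p rows held reads in every library, and miR-129-1-3p held most of them. The ratio of miR-129-1-3p to miR-129-2-3p counts was 5.04, 4.91 and 6.50 in HFD 1, 2 and 3 and 4.57, 4.14 and 4.86 in NCD 1, 2 and 3. The chromosome 6 arm was higher in 6 of 6 libraries, with a geometric mean ratio of 4.96 and a mean log2 ratio of 2.31 ± 0.22 (SD, n = 6). A two-sided exact sign-flip permutation test over the 6 libraries gave p = 0.0312, the smallest it can give. Adjusted over the 2 ratios tested it was 0.0625, which did not pass 0.05. The counts behind both ratios were known when the family was chosen, so the p-values of both are descriptions and carry no support. Reads too short to hold base 20 cannot be assigned, and small RNA ligation favours some ends over others, so the ratio is one of reads. How reads that match both 3p arms were counted is not known, so the ratio may differ from that of the loci.

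The locus ratio was steady where the levels were not, within the limit given above for reads that match both 3p arms. In NCD 3, where both 3p arms were raised, it was 4.86, between the values of the other NCD libraries and those of the HFD libraries. The mean log2 ratio was 2.44 ± 0.22 for HFD against 2.17 ± 0.12 for NCD (SD of n = 3 libraries), a difference of 0.27. The lowest HFD ratio, 4.91, lay just above the highest NCD ratio, 4.86, and without HFD 3 the difference fell to 0.14. How often other ratios are ordered by diet in this way was not counted, so the order is a description and carries no test. Of the 3p reads, miR-129-1-3p made up 83.1% to 86.7% in HFD and 80.6% to 82.9% in NCD libraries. The Wilson 95% intervals of these shares, and of the arm shares below, reached at most 1.04 percentage points to either side, and cover counting error only.

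The balance of the arms varied far more than the balance of the loci. miR-129-5p made up 83.7%, 78.3% and 65.3% of the reads of miR-129-5p and both 3p arms in HFD 1, 2 and 3, and 83.4%, 86.2% and 49.5% in NCD 1, 2 and 3. The 5p arm thus led in 5 of 6 libraries, and in NCD 3 the arms were nearly level, at 42788 reads for 5p and 43573 for both 3p arms together. HFD 3 was the next lowest. These shares need no scaling between libraries. The mean log2 ratio of 5p to both 3p arms was 1.68 ± 1.03 (SD, n = 6), and the two-sided exact sign-flip permutation test gave p = 0.0625, also 0.0625 when adjusted over the 2 ratios. Without NCD 3 the mean was 2.02 ± 0.68 (SD), beside 2.31 ± 0.24 for the log2 ratio of the loci.

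Between diets the arm balance overlapped widely. The 5p share averaged 75.8% ± 9.45 for HFD against 73.0% ± 20.4 for NCD (SD of n = 3 libraries). The log2 ratio of 5p to both 3p arms was 1.71 ± 0.73 for HFD and 1.65 ± 1.46 for NCD, a difference of 0.062 that was much smaller than the spread between libraries. Without NCD 3 the difference was -0.78. Leaving out HFD 1 or HFD 2 also turned it negative, to -0.26 and -0.010. It rose to 0.46 without HFD 3, 0.40 without NCD 1 and 0.56 without NCD 2.

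**Figure D2:**
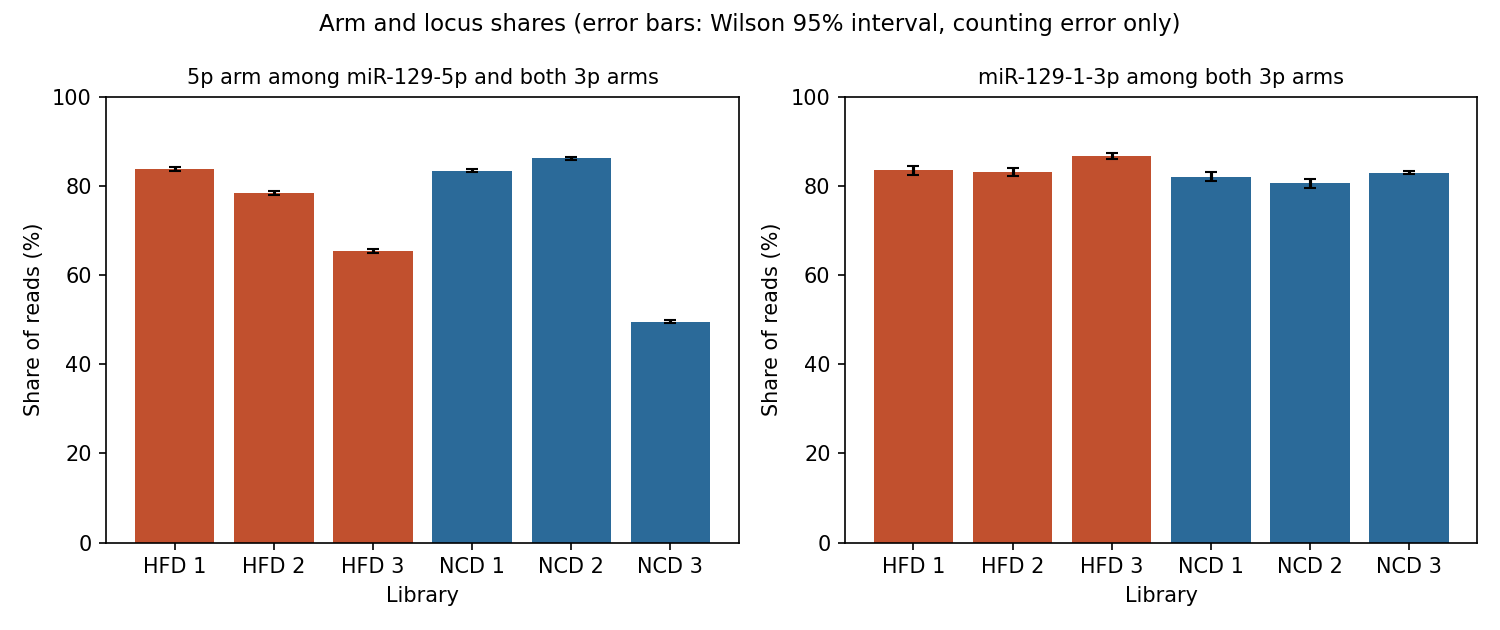
Share of reads in each library, in percent from 0 to 100: the 5p arm among miR-129-5p and both 3p arms on the left, and miR-129-1-3p among both 3p arms on the right; error bars are Wilson 95% intervals. The 5p share runs from 49.5% in NCD 3 to 86.2% in NCD 2, while the share of miR-129-1-3p stays between 80.6% and 86.7%.

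The arm shift in NCD 3 was set beside that of other hairpins, a comparison chosen after the values were seen. It took hairpins with a 5p and a 3p row of the same name, both tested, not mirrored and with at least 100 counts on average in the lower arm, and for each the log2 of 5p over 3p in NCD 3 minus the mean of the other 5 libraries. The value was -2.08 for miR-129-2 and -2.04 for miR-129-1, which share their 5p row and are not separate measurements. The other 30 hairpins had a median of 0.32, an interquartile range from -0.17 to 0.58 and a range from -2.48 to 2.01. Of them 2, or 6.67%, fell below -1.5: miR-574 at -2.48 and miR-212 at -2.31. The miR-129 loci therefore lay at the 3p end of this distribution without being its most extreme members.

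**Figure D3:**
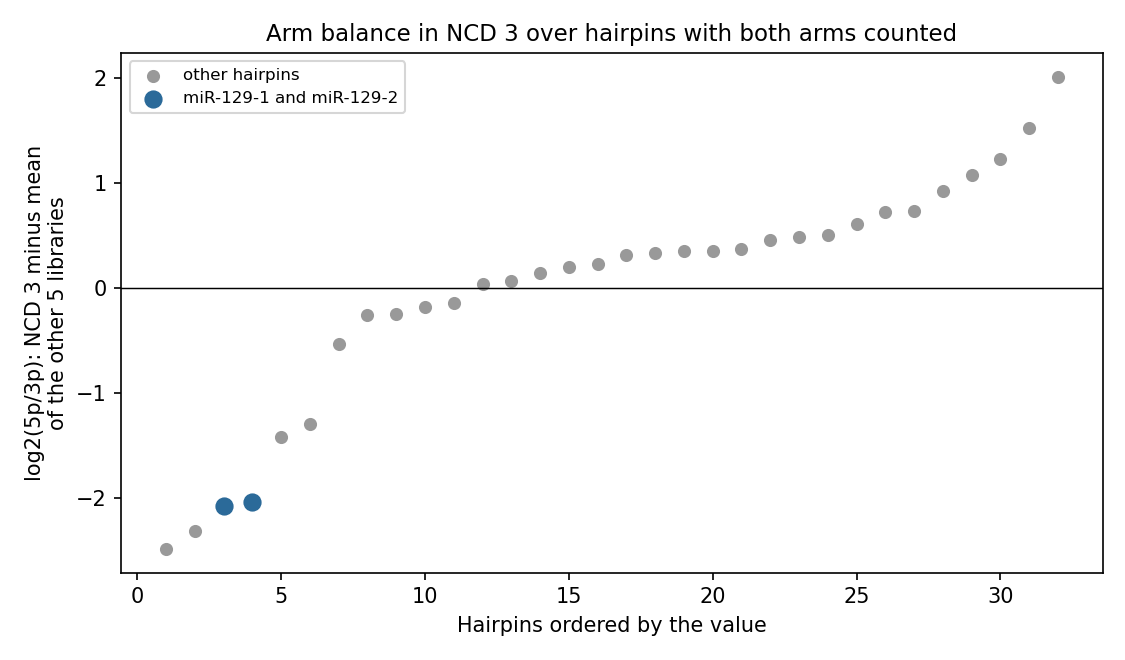
Each point is 1 hairpin, ordered along the horizontal axis; the vertical axis is the log2 ratio of 5p to 3p counts in NCD 3 minus the mean of the other 5 libraries. Both miR-129 loci lie near -2, at -2.08 and -2.04, with 2 other hairpins below them.

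On the scale of single miRNAs the shift lay on the 3p side with TMM factors. The log2 CPM of NCD 3 minus the mean of the other 5 libraries was 1.94 for miR-129-1-3p and 1.97 for miR-129-2-3p, ranks 12 and 11 from the highest of 406. It was -0.10 for miR-129-5p, rank 228. On library totals each arm was highest in NCD 3. miR-129-5p was at 5269 CPM there against 2057 to 4549 in the other libraries, and miR-129-1-3p at 4449 against 380 to 946. miR-129-2-3p was at 916 CPM against 75.4 to 162. Both 3p arms were thus far above the other libraries in NCD 3 with either scaling, and only the place of miR-129-5p depended on it. Across the 6 libraries the log2 levels of both 3p arms had a Pearson r of 0.97 (Spearman 0.77), and 0.86 without NCD 3. How reads that match both 3p arms were counted is not known, which limits this r as well. The log2 levels of miR-129-5p and miR-129-1-3p had an r of -0.16 (Spearman -0.26), and -0.16 without NCD 3. Those of miR-129-5p and miR-129-2-3p had an r of 0.043 (Spearman 0.31), and 0.34 without NCD 3. These values describe 6 libraries or fewer, of which single ones weigh heavily.

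The miRNAs whose levels were most like those of miR-129-5p over the 6 libraries, by Pearson r of log2 CPM among 376 candidates, were miR-1843a-3p (r = 0.98), the muscle miRNA miR-1a-3p (0.95), miR-671-3p (0.94), the endothelial miRNA miR-126a-3p (0.92) and miR-668-3p (0.92). Without HFD 3 and NCD 1, the libraries farthest from the median of miR-129-5p, r was 0.94, 0.96, 0.63, 0.98 and 0.32. The likeness of miR-671-3p and miR-668-3p thus rested on those libraries. miR-1843a-3p was low, at 0.727 to 4.29 CPM in HFD and 2.49 to 9.20 CPM in NCD libraries. These r values are the highest among many candidates over 6 libraries and carry no test. miR-126a-3p ran from 295 to 419 CPM in HFD and from 333 to 726 CPM in NCD libraries, and like miR-129-5p it was highest in NCD 1. For miR-129-1-3p, looked up after the values were seen, the closest were miR-7a-2-3p (r = 0.98), miR-139-5p (0.98) and miR-342-3p (0.97), and without NCD 3 these were 0.94, 0.89 and 0.91. miR-7a-2-3p, also a 3p arm, comes from a hairpin of the endocrine miR-7 family.

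The summed markers of neurons were below miR-129-5p in every library, but single markers differed widely in level. All 8 neuron markers were in the table, none at 0 over the 6 libraries, and their summed level was 272 to 970 CPM in HFD and 497 to 688 CPM in NCD libraries. The neuron-defining miR-124-3p was at 4.90, 9.34 and 1.55 CPM in HFD 1, 2 and 3 and at 2.23, 4.72 and 4.98 CPM in NCD 1, 2 and 3. miR-137-3p, also neuronal, was at 0.091 to 1.48 CPM and miR-138-5p at 1.33 to 2.90 CPM. Other markers of the list were higher, miR-128-3p at 136 to 219 CPM and miR-218-5p at 22.6 to 105 CPM. The level of miR-129-5p was 374 to 2174 times that of miR-124-3p. That range is rough, since miR-124-3p held only 15 to 74 reads per library, and miR-137-3p held 1 to 10. miR-9-5p, known from neural progenitors and from beta cells, ran from 103 CPM in HFD 3 to 628 CPM in HFD 2, with all NCD libraries between. The part of neurons in the miR-129 values was not tested. In bulk islets a change in the number of cells of a type and a change in RNA per cell cannot be told apart.

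Other cell types varied with single libraries. The summed acinar markers were at 20.2 to 206 CPM in HFD and 112 to 418 CPM in NCD libraries, and the summed leukocyte markers at 21.5 to 29.7 and 27.5 to 84.9 CPM. Both sums were highest in NCD 3, the library with the highest 3p arms. Of the leukocyte sum there, 71.5 CPM were miR-342-3p alone, which is also named above for its likeness to miR-129-1-3p. The other leukocyte markers were low and did not move together. miR-150-5p was highest in NCD 3, at 4.55 CPM, but miR-155-5p in HFD 2, at 5.30 CPM. miR-142a-5p was lowest in NCD 3, at 1.42 CPM, and highest in NCD 1, at 14.5 CPM. The summed endothelial markers were at 300.0 to 434 CPM in HFD and 346 to 748 CPM in NCD libraries, with the lowest NCD value in NCD 3. The summed islet endocrine markers were at 489011 to 577726 and 278816 to 631771 CPM, with the lowest value in NCD 3. All sums of this paragraph carry TMM factors, and the factor of 1.73 lowers the levels of NCD 3 relative to library totals. The stromal sum was 1329 to 4976 and 1515 to 2978 CPM, the erythroid sum 47.8 to 155 and 39.8 to 143 CPM, and the liver and muscle sum 48.3 to 130 and 127 to 885 CPM. The part of these cell types in the miR-129 values was not tested.

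The neural and endocrine miRNAs that miR-129 is known with were compared between diets as a list. Of 27 listed, 26 were in the table and 23 were tested. Of these 17 had a positive and 6 a negative fold change, beside 209 and 197 of all 406 tested miRNAs. Their median log2 fold change was 0.14, beside 0.015 over all tested miRNAs. The miR-129 rows were negative, but they are not all separate measurements, and miR-129-1-3p was at 0.17 without NCD 3. edgeR's quasi-likelihood test called 0 of the 23 (lowest adjusted p = 0.48), and DESeq2 and limma-voom called 0. Over all 406 tested miRNAs edgeR called 1, DESeq2 3 and limma-voom 1, so a count of 0 among 23 is near that background. An unadjusted edgeR p under 0.05 was reached by 1 of the 23, beside 41 of the 406. It was miR-204-5p, a miRNA of beta cells, named here after its values were seen, with means of 194 ± 23.9 and 301 ± 41.0 CPM for HFD and NCD (SD of n = 3 libraries) and a log2 fold change of -0.64 ± 0.29 (SE).

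By their mean level miR-375-3p, miR-7a-5p, miR-7b-5p, miR-127-3p, miR-184-3p and miR-183-5p led this list. miR-184-3p, a glucose-regulated beta-cell miRNA, was closest in abundance to miR-129-5p, with means of 2313 ± 945 and 2233 ± 558 CPM for HFD and NCD (SD of n = 3 libraries) and a log2 fold change of 0.051 ± 0.36 (SE). miR-183-5p, of the sensory and endocrine cluster, had 2228 ± 272 and 2217 ± 1030 CPM and a log2 fold change of 0.0078 ± 0.37. miR-127-3p, from an imprinted cluster, had 0.38 ± 0.31 and miR-7a-5p, which restrains beta-cell proliferation, 0.37 ± 0.36. For miR-7b-5p it was 0.36 ± 0.36 and for miR-375-3p -0.024 ± 0.41. None of these passed the edgeR test, with adjusted p from 0.629 to 0.996.

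Under the processing alternatives the sign of miR-129-5p was negative in 17 of 17, with log2 fold changes from -0.84 to -0.37. miR-129-2-3p was also negative in 17 of 17, from -1.72 to -0.15, and miR-129-1-3p in 16 of 17, from -1.49 to 0.17. The values of both 3p arms nearest to or above 0 were those without NCD 3. The size of the difference in both 3p arms thus rested on 1 library, and that in miR-129-5p did not.

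**Figure D4:**
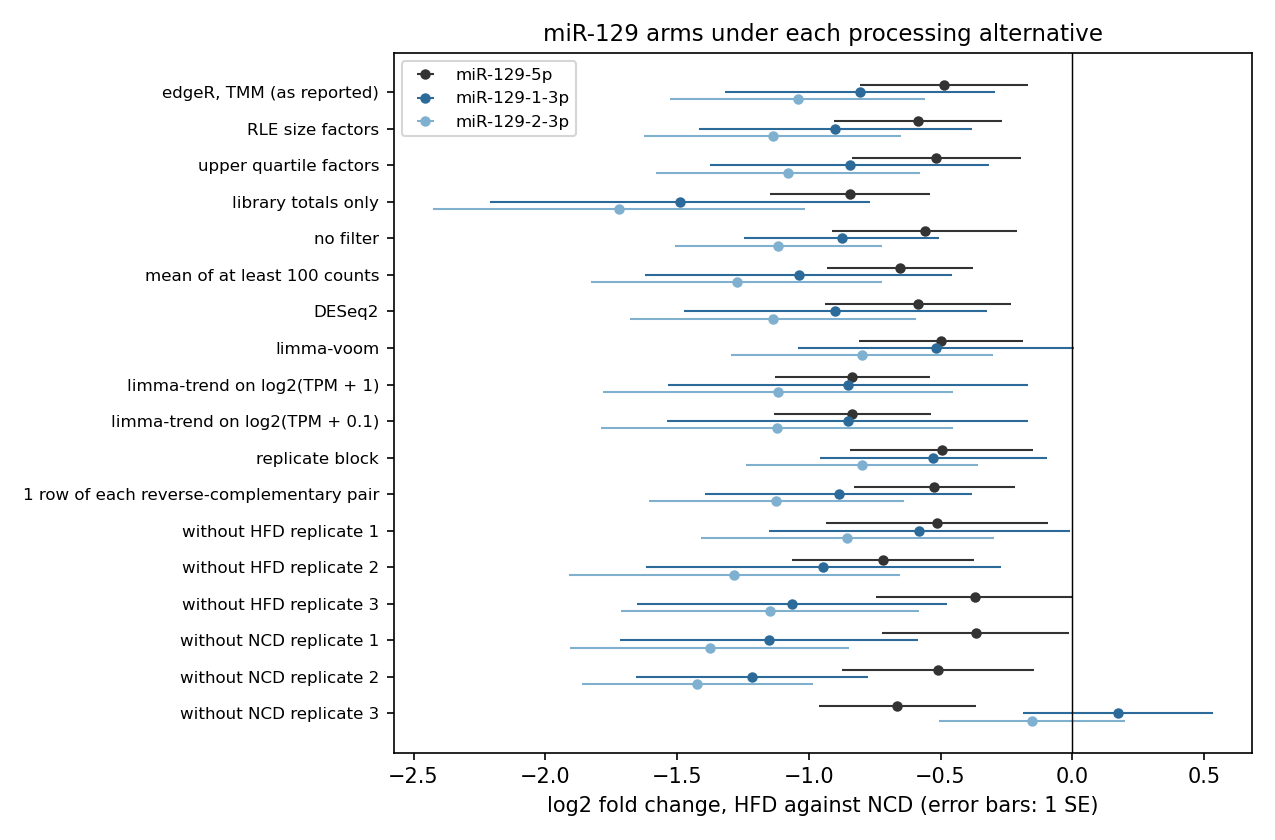
log2 fold change of HFD against NCD for miR-129-5p, miR-129-1-3p and miR-129-2-3p under each processing alternative, with 1 standard error. The 3 arms stay below 0 in each row except the last, without NCD 3, where miR-129-1-3p is at 0.17 and miR-129-2-3p at -0.15 while miR-129-5p is at -0.66.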

How the data were processed

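Small RNA of islets was sequenced from 3 libraries per diet, made with a NEBNext small RNA kit from total RNA, per the labels' protocols. For every mature miRNA the authors deposited raw read counts and TPM values, 1 column each per library, per the file headers. The deposited TPM equals CPM on the raw total (largest relative difference 4.61e-09) and was used in alternatives only. The sources used here name no aligner, counter, build or annotation release. The fit used edgeR 4.0.16 (filterByExpr with a minimum count of 10, TMM, estimateDisp, glmQLFit with legacy off) in R 4.3.3, with diet as the only term and Benjamini-Hochberg adjustment over 406 miRNAs. Rows left out held at most 0.0351% of a library. Ratios of arms carry a prior count of 0.5. limma 3.58.1 and DESeq2 1.42.0 served as alternatives. The edgeR steps were tested on simulated data. Members and lists were chosen with earlier results of these data known. Named are all 5 members, the 5 miRNAs most like the most abundant member, and the 6 most abundant neural and endocrine miRNAs. miR-129b-5p had been paired by design with miR-129-1-3p, but locus and sequence place it with miR-129-2-3p, and both are given. Mirrored rows are those complementary over at least 18 bases. The fit, the ranks and the shares of tested miRNAs kept all of them among the 406 rows. Only in reading the miR-129 rows were those within 5% taken as 1 measurement. An alternative fit with 1 row of each mirrored pair tested 384 rows and called 1. RefSeq holds 3 of the hairpins and 4 of the 5 mature names.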

Additional observations from a re-analysis of the deposited data

How the results depend on the processing

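edgeR called 1 miRNA in all, DESeq2 3, and edgeR with no filter 8. Scaling by library totals gave 0, as did limma-trend at a pseudocount of 1 and at 0.1. Single libraries left out gave 0 (NCD 1) to 4 (NCD 2). Leaving out 1 library moved the log2 fold change of miR-129-5p between -0.72 and -0.37, that of miR-129-1-3p between -1.22 and 0.17, that of miR-129-2-3p between -1.42 and -0.15 and that of miR-129b-5p between -1.43 and -0.20. The end nearest or above 0 was without NCD 3 for the last 3, and the cause was not tested. The mean log2 ratio of the loci ran from 2.23 to 2.36 and that of the arms from 1.49 to 2.02, and prior counts of 1 or 5 or the mirrored row in place of miR-129-5p changed neither sign. With 5 libraries the exact test cannot go below 0.0625. For replicate numbers 1, 2 and 3 the deviations of the HFD and NCD library from their group means correlated at 0.17, -0.24 and 0.35, and they were not treated as a pairing. With the replicate block the count of calls stayed at 1, and the log2 fold changes were -0.50 for miR-129-5p, -0.53 for miR-129-1-3p and -0.80 for miR-129-2-3p. Depth is no limit for these rows, since the lowest count was 420.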
